A study of Homo sapiens with 3 samples.

Results

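Isolated HDAC1 summits are lone points of called binding, each more than 500 kb from the next summit of its own list. They were chosen on chromosomes 1 to 22 from the spacing of the summits alone. With H89 they numbered 318 of 11553 summits, and in the control 346 of 9476, which makes 664 of the 21029 summits deposited in both lists. On the autosomes they were 2.89% (exact 95% interval 2.59% to 3.23%) of 10985 H89 summits and 3.82% (3.43% to 4.24%) of 9058 control summits. Intervals throughout are exact at 95% (Clopper-Pearson), and reflect counting error only.

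The libraries were made by CUT&Tag, in which an antibody-tethered transposase cuts and tags DNA next to the target protein, from HepG2, a human liver carcinoma line. There was 1 HDAC1 library from H89-treated HepG2 cells labelled WT and 1 from HepG2 cells labelled WT that had no H89. An IgG library, also from WT HepG2 cells with no H89, was not analysed here, and no IgG background stands beside the values. H89 is a compound that inhibits PKA, the kinase activated by cAMP, and is known to act on other kinases too, and the labels give neither its dose nor its time. The lists hold positions and scores only, so neither the identity of the cells nor inhibition of PKA could be checked, and read depth is unknown. There was 1 library per condition, so no difference was checked in replicates, and no test of H89 against the control was made.

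HDAC1 is a histone deacetylase and strips acetyl marks from histone tails. It works as the catalytic part of corepressor complexes such as NuRD, Sin3 and CoREST, and is known to be found at many active promoters and enhancers as well as at silenced genes. Chromosome bands that stain darkly with Giemsa are known as gene-poor, AT-rich and late-replicating, and pale bands as gene-rich, so the stain class of a band gives a rough view of the surroundings of a lone site. No annotation of the hg19 build was at hand, so the summits were not placed relative to genes or promoters, and no sequence is printed. Positions are 1-based on hg19.

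The distances that chose the members ran over a wide range, and they are given as a description. The median distance to the nearest summit of the list was 841 kb for isolated H89 summits and 842 kb for isolated control summits, beside 22.6 kb over all autosomal H89 summits and 28.4 kb over all autosomal control summits. More than 1 Mb separated 123 of the H89 and 141 of the control members from any neighbour. More than 2 Mb separated 27 and 36 of them. The nearest neighbour was itself isolated for 101 H89 members (31.8%) and 106 control members (30.6%). The rule bears on these shares, because such a neighbour is already more than 500 kb from the next summit on 1 side. The first or last summit of a chromosome, which has a neighbour on 1 side only, accounted for 5 members of each list.

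The isolation limit fell within a continuous range of distances. The closest H89 members inside it were a pair in 4q32.1 on chromosome 4, at positions 159593291 (score 14.7) and 159092101 (score 3.44), 501 kb apart, and a summit at 215674716 of chromosome 2 (502 kb, score 5.08). The closest H89 summits outside it lay 496 kb, 495 kb and 493 kb from their neighbours and scored 4.81, 7.66 and 12.3. In the control, the closest members inside were a pair at 19192333 and 18691704 of chromosome 18, 501 kb apart, which scored 3.37 and 5.50, and a summit at 159091840 of chromosome 4 (502 kb, score 3.45). The closest control summits outside were a pair 499 kb apart in 10q23.32, scoring 5.50 and 3.45, and a summit 496 kb from its neighbour in 5q13.2, scoring 3.45.

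**Figure D1:**
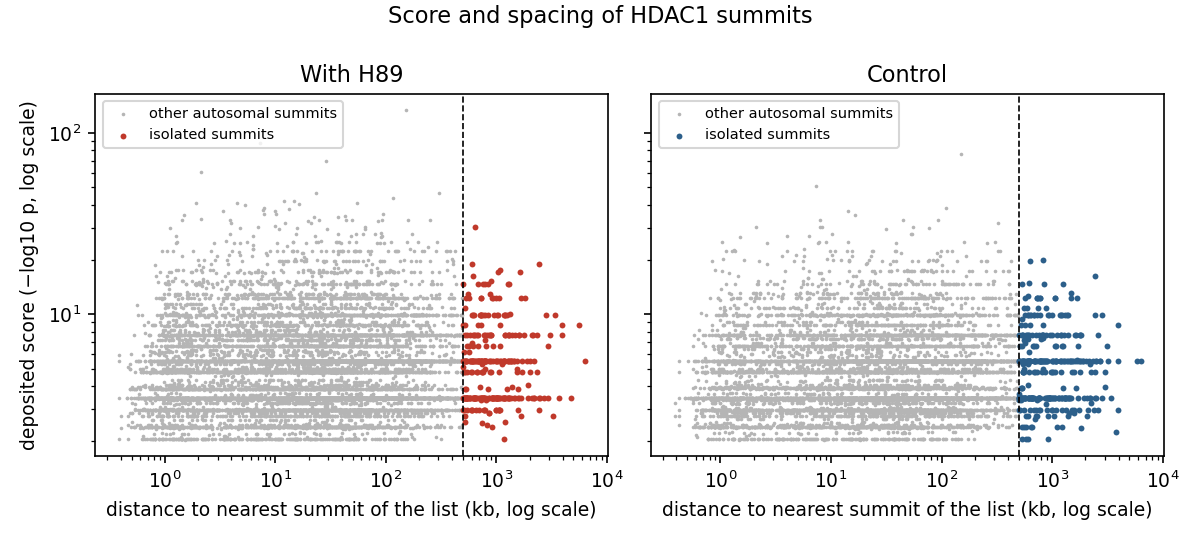
Each point is an autosomal HDAC1 summit, with its distance to the nearest summit of the same list (kb, log scale) on the x axis and its deposited score (−log10 p, log scale) on the y axis, H89 on the left and control on the right; the dashed line is 500 kb. Isolated summits (coloured) reach scores of 30.2 with H89 and 19.8 in the control, while the other summits (grey) reach 133.1 and 76.5, and the horizontal rows are scores shared by many summits.

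The loneliest HDAC1 site of both lists lay in 3p12.2 on chromosome 3. Its summit stood at 81810528 with H89 (score 5.49) and at 81810440 in the control (score 5.50). The neighbours lay 6.33 Mb to the left and 6.30 Mb to the right in both lists. The left neighbour, at 75484557 with H89 (score 18.8) and 75484584 in the control (score 16.2) in 3p12.3, was isolated too and was among the highest-scoring isolated sites.

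A second lone couple was called in both lists in 13q21, a stretch of chromosome 13 known to be gene-poor. In 13q21.2 the summit scored 7.66 with H89 at 60738013 and 5.50 in the control at 60737905. In 13q21.31 it scored 8.71 with H89 at 64650019 and 8.72 in the control at 64650112. These summits were each other's nearest neighbours, 3.91 Mb apart in each list, and the next summit beyond lay 7.51 Mb to the left and 8.65 Mb to the right.

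Other very lone sites were less stable between the lists. An H89 summit at 193074532 in 1q31.2 (score 3.44) had no H89 neighbour within 4.80 Mb and no control summit within 4.80 Mb either. A summit in 7q31.31, at 120590958 in the control (score 2.97), was 3.98 Mb from the next control summit, whereas its H89 partner at 120590993 (score 2.96) had an H89 neighbour at 471 kb. In 15q11.2 the first control summit of chromosome 15, at 23034243 (score 5.51), was 5.80 Mb from the next, and its H89 partner (score 3.87) had a neighbour at 52.2 kb. In 21p11.2 the H89 summit at 10164045 (score 8.71) was 5.59 Mb from the next. Its control partner (score 4.77) had a neighbour at 1.02 Mb, in the centromeric band 21p11.1. The H89 distance crosses that band. Assembly gaps and stretches where reads cannot be placed were not left out of any distance.

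A larger share of isolated than of other HDAC1 summits lay in darkly staining bands. Position was used to choose the members, so these shares are a description with no test. The darkest 2 positive classes, gpos75 and gpos100, held 118 of 318 isolated H89 summits (37.1%, interval 31.8% to 42.7%) and 9.04% of the other H89 summits. In the control they held 117 of 346 isolated summits (33.8%, 28.8% to 39.1%) and 9.11% of the others. These classes make up 29.4% of the autosomal length. Giemsa-negative bands (gneg) held 35.5% of isolated and 66.6% of other H89 summits, and 37.9% of isolated and 66.5% of other control summits, on 42.4% of the length.

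Counted the other way, the share of a band class's summits that stood alone was higher in the darker classes. In the darkest class, gpos100, 58 of 395 H89 summits (14.7%, interval 11.3% to 18.6%) and 55 of 334 control summits (16.5%, 12.7% to 20.9%) were isolated. In Giemsa-negative bands 113 of 7215 H89 summits (1.57%) and 131 of 5923 control summits (2.21%) were. Per Mb, isolated summits ranged from 0.0926 in gneg to 0.155 in gpos75 with H89 and from 0.107 in gneg to 0.177 in gpos50 in the control. All summits per Mb ranged, over the same positive and negative classes, from 0.857 in gpos100 to 6.75 in gpos25 with H89 and from 0.725 to 5.41 in the control.

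**Figure D2:**
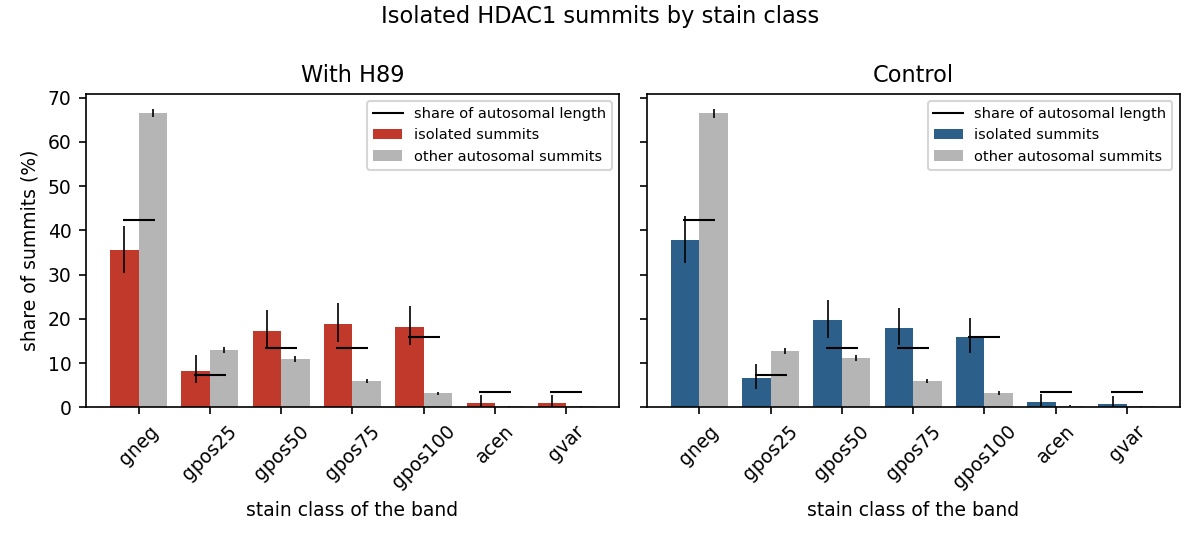
Bars give the share of isolated (coloured) and other autosomal (grey) HDAC1 summits (%) in each Giemsa stain class, from negative (gneg) through the positive classes to centromeric (acen) and variable (gvar) bands, H89 on the left and control on the right, with exact 95% intervals; black dashes give the class's share of autosomal length. Isolated summits in gneg are 35.5% with H89 and 37.9% in the control, on 42.4% of length, and in gpos75 18.9% and 17.9%, on 13.4% of length, while the other summits are at 66.6% and 66.5% in gneg and 5.88% and 5.91% in gpos75.

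Centromeric and variable bands, which cover 6.81% of the length, held few summits of any kind. Of their 58 H89 summits 6 were isolated (10.3%, interval 3.89% to 21.2%). Of their 56 control summits 7 were isolated (12.5%, 5.18% to 24.1%). Over all autosomes these shares were 2.89% and 3.82%. The stalk bands held no isolated summit. The highest isolated site of the centromeric and variable bands was in 19q11, at 28284729 with H89 (score 12.3) and 28284738 in the control (score 7.67). Another, in 2p11.1 at 91845257, scored 9.97 with H89, and its control partner scored 12.1 but was not isolated. Members in such bands or in a band next to them numbered 17 with H89 and 27 in the control.

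Among chromosomes, the share of summits that were alone ran from 0.361% (3 of 830) with H89 and 0.299% (2 of 669) in the control on chromosome 19, known as gene-dense, to above 10% on a few chromosomes known as gene-poor. On chromosome 4 the share was 12.0% with H89 (36 of 300, interval 8.55% to 16.2%) and 12.7% in the control (33 of 259, 8.94% to 17.4%). On chromosome 13 it was 10.2% with H89 (16 of 157, 5.94% to 16.0%) and 7.56% in the control (9 of 119, 3.52% to 13.9%). On chromosome 18 it was 5.56% with H89 (8 of 144, 2.43% to 10.7%) and 13.5% in the control (14 of 104, 7.56% to 21.6%). For each of these 3 chromosomes the H89 and control intervals overlapped. In the control, chromosomes 5 (9.82%) and 8 (8.33%) were above chromosome 13. With H89, chromosome 5 (26 of 433) was above chromosome 18. Low shares were also found on chromosomes 16 (0.828% with H89, 0.971% in the control), 17 (0.462%, 0.559%) and 20 (0.797%, 0.686%). Neither gene density nor copy number was measured for any chromosome, so their part in these shares was not tested.

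Lone summits were scattered over many bands. Of 811 autosomal bands, 240 held an isolated H89 summit, 264 an isolated control summit and 186 both. Only 13 bands with H89 and 12 in the control held 3 or more. Some bands held nothing but lone summits, namely 54 of the 714 bands with any H89 summit and 60 of the 700 with any control summit. Of these, only 16 with H89 and 14 in the control held 2 or more summits, and the rest held a single summit.

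Band 5q14.3, a gpos100 band of 9.50 Mb on chromosome 5, held the most over both lists together, with 5 isolated summits with H89 and 4 in the control, which were all the summits of the band in each list. Its highest site scored 12.3 with H89 at 89770435 and 9.94 in the control at 89770408. At 87564538 with H89 and 87564637 in the control the scores were 5.49 and 5.50. At 86563569 with H89 the score was 2.96, against 4.77 at 86563819 in the control. At 90679262 with H89 it was 3.36, against 2.04 at 90679290 in the control. The fifth H89 summit, at 91494865 (score 3.44), had no control partner. In the control, bands 12q12 and 6p22.3 also held 4 isolated summits.

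The next richest bands were less uniform. Band 1q41 (gpos100) held 4 isolated H89 and 3 isolated control summits, among 15 H89 and 9 control summits in all. Of these members, the site at 221915609 with H89 (score 9.92) and 221915619 in the control (score 7.67) was isolated in both lists. Band 9q21.13 (gpos50) held 4 isolated H89 summits, all those of the band, and 2 isolated control summits among 4. Bands 1q32.2 (gpos25) and 4q24 (gpos50) each held 3 isolated summits in either list. Band 12q12 (gpos100) reached the same sum of 6 over both lists, with 2 isolated H89 and 4 isolated control summits.

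The typical score of a lone HDAC1 summit was at or a little above that of the other summits, but few scores were very high. The score is taken to be −log10 of the p-value of the authors' peak call. The median was 5.49 for isolated and 4.76 for other H89 summits, and 5.50 for isolated and 4.77 for other control summits. The binomial interval of the median ran from 4.76 to 5.49 for isolated H89 summits and from 4.77 to 5.50 for isolated control summits, so in each list it reached down to the median of the others. A score of 5 or more was held by 52.5% (46.9% to 58.1%) of isolated and 45.8% of other H89 summits. In the control it was held by 51.7% (46.3% to 57.1%) of isolated and 41.5% of other summits. As described below, scores on either side of 5 can stand for the same count, so these shares do not compare counts.

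At 10 or more the shares were 8.81% (28 of 318, interval 5.93% to 12.5%) of isolated and 9.81% of other H89 summits, and 6.65% (23 of 346, 4.26% to 9.81%) of isolated and 6.42% of other control summits. At 20 or more there was 1 isolated H89 summit (0.314%), against 156 of the 10667 others (1.46%). In the control there was none among 346 isolated summits (an exact interval up to 1.06%), against 62 of the 8712 others (0.712%).

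Scores of isolated summits took few values, 41 with H89 and 44 in the control, and most fell on the steps of 1 background. The commonest score from 5 up to 6 in each list was set equal to the Poisson probability of at least 3 counts, which gave a mean of 0.0271 with H89 and 0.0269 in the control. Within 0.001 of the steps of that mean lay 221 of 318 isolated H89 summits (69.5%, interval 64.1% to 74.5%), against 40.2% of the other H89 summits. In the control these were 226 of 346 isolated summits (65.3%, 60.0% to 70.3%) and 40.5% of the others. Steps of a second mean, 0.0477 with H89 and 0.0473 in the control, held 17.3% of isolated and 20.6% of other H89 summits. In the control they held 17.3% of isolated and 20.8% of other summits. The median scores given above all equal 3-count steps. Those of isolated summits, 5.49 and 5.50, are steps of the first mean, and those of the others, 4.76 and 4.77, of the second. The gap between these medians is thus not a gap in counts. A score of 5 lies between these steps, so 3 counts pass it on the first mean only.

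On this reading, most lone calls would rest on 2 or 3 counts. The 2-count step of the first mean held 92 isolated H89 summits (28.9%, against 15.5% of the others) and 86 isolated control summits (24.9%, against 15.9% of the others). The 3-count step held 61 isolated H89 summits (19.2%, against 12.3% of the others) and 77 isolated control summits (22.3%, against 13.8% of the others). Over both means, 59.4% of isolated and 41.8% of other H89 summits were at 2 or 3 counts. In the control these shares were 59.0% and 44.8%. Scores on the steps of neither mean give no count here. They made up 13.2% of isolated and 39.3% of other H89 summits, and 17.3% and 38.8% in the control. The lower shares of the other summits at 2 or 3 counts therefore do not show that those summits rest on more counts. The sources used here do not say what was counted, or against which library.

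Most lone HDAC1 sites of either list were called in the other list too, at shares close to those of all autosomal summits. A control summit lay within 1000 bp of 217 of 318 isolated H89 summits (68.2%, interval 62.8% to 73.3%), against 72.6% of the other H89 summits and 72.4% of all autosomal ones. An H89 summit lay within 1000 bp of 300 of 346 isolated control summits (86.7%, 82.7% to 90.1%), against 87.5% of the others and 87.5% of all autosomal ones. In each list the share over all autosomal summits lay within the interval of the isolated ones. The partner was close, at a median offset of 53 bp for isolated H89 summits and 46 bp for isolated control summits, and at 55 bp for the others of each list.

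The share with a partner followed the score. Of isolated H89 summits scoring from 2 up to 4, 58 of 131 had a control partner (44.3%, interval 35.6% to 53.2%), against 52.2% of other H89 summits of that class. From 4 up to 6 it was 66 of 90 (73.3%, 63.0% to 82.1%), against 79.9% of the others. From 6 up to 8 it was 39 of 42 (92.9%), against 93.6% of the others. Of isolated control summits from 2 up to 4, 103 of 143 had an H89 partner (72.0%, 63.9% to 79.2%), against 77.9% of the others, and from 4 up to 6 it was 103 of 108 (95.4%), against 93.8% of the others.

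**Figure D3:**
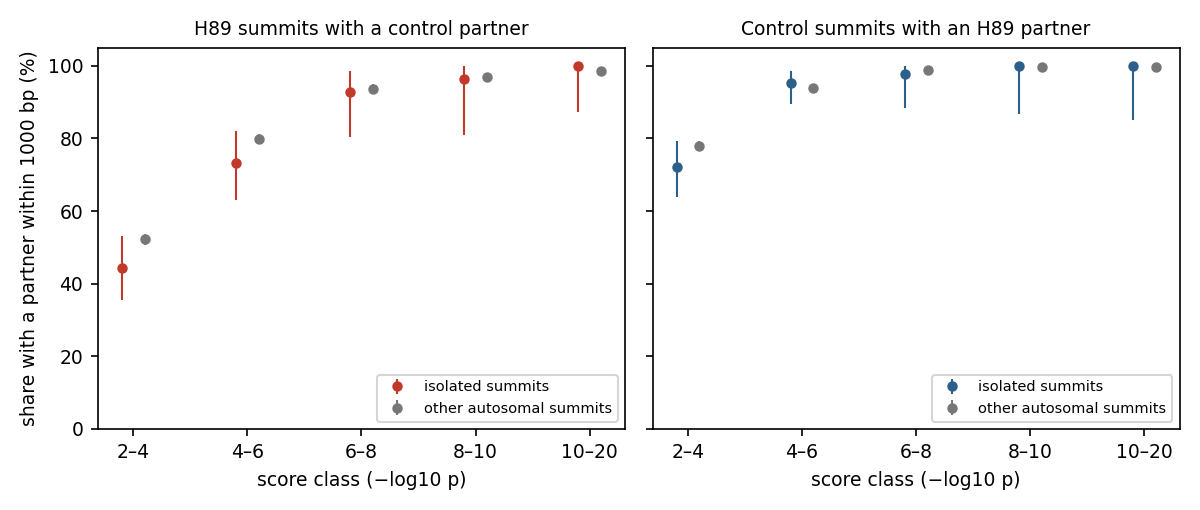
Points give the share of summits (%) with a summit of the other list within 1000 bp, by score class (−log10 p), for isolated (coloured) and other autosomal (grey) summits with exact 95% intervals, H89 on the left and control on the right; scores of 20 or more are left out because they hold 1 isolated H89 and no isolated control summit. From 2 up to 4 the share is 44.3% of isolated H89 and 72.0% of isolated control summits. From 10 up to 20 it reaches 100% in both, against 98.7% of the other H89 and 99.8% of the other control summits.

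Lone summits called in 1 list alone scored low, as did the other summits called in 1 list alone. The 101 isolated H89 summits without a control partner had a median of 3.44, the 2-count step, against 5.49 for the 217 with one. None of the 101 scored 10 or more, an exact interval up to 3.59%. Among non-isolated summits without a partner, 14 of 2928 with H89 (0.478%) and 1 of 1085 in the control (0.0922%) did. The 46 isolated control summits without an H89 partner had a median of 3.45 and a maximum of 7.67, at 139097121 of chromosome 8 in 8q24.23.

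The highest isolated H89 summit without a partner, singled out after its value was seen, lay at 30279946 of chromosome 4 in 4p15.1. It scored 9.92, the 5-count step, and stood 3.42 Mb from the nearest H89 summit and 3.46 Mb from the nearest control summit. No control summit lay within 500 kb of 87 of the 101 H89 summits without a partner, and no H89 summit lay within 500 kb of 32 of the 46 such control summits. These counts follow in part from the isolation rule. Most summits of each list have a partner, and hardly any summit within 500 kb of a member could have one. Listing depends on a threshold, so a summit found once is not thereby shown to be unbound in the other library.

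Isolation itself was often not shared, and more control than H89 members had a partner with neighbours. Both summits were isolated at 185 sites, which is 58.2% of the isolated H89 summits and 53.5% of the isolated control summits. For 32 isolated H89 summits (10.1%, interval 6.99% to 13.9%) the control partner had a neighbour within 500 kb. For 115 isolated control summits (33.2%, 28.3% to 38.5%) the H89 partner had a neighbour within that distance. The H89 list is the longer one, with 10985 autosomal summits against 9058 in the control, and the part of list length in these numbers was not tested.

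Around the 115 H89 partners there were 178 other H89 summits within 500 kb, of which 1 scored 10 or more (11.3). Around the 32 control partners there were 39 other control summits within 500 kb, and the highest scored 5.50. By the isolation rule, hardly any of these neighbours can have a partner in the other list, and summits without a partner score low elsewhere too, at a median of 3.44 among the non-isolated H89 ones and 3.45 among the non-isolated control ones. When neighbours of either list were counted, apart from the partner itself, 275 H89 and 221 control summits remained isolated, so the order of the numbers 318 and 346 turned round.

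**Figure D4:**
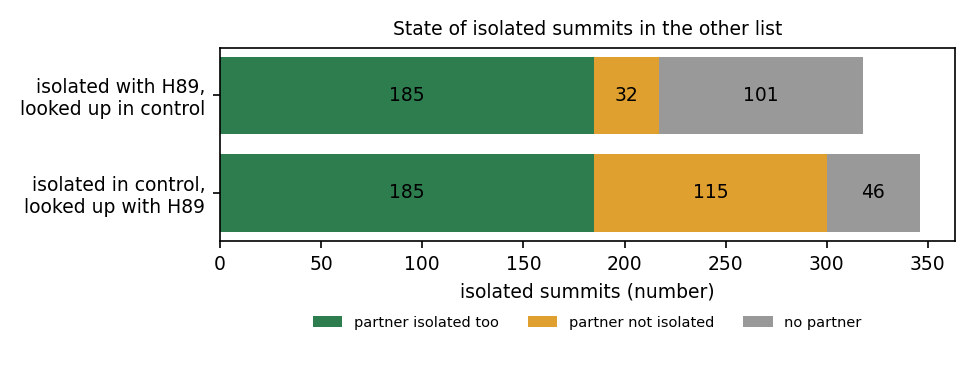
Bars give the number of isolated summits whose nearest summit of the other list within 1000 bp was isolated too, was not isolated, or was missing, for members isolated with H89 (top) and in the control (bottom). The 185 sites isolated in both lists appear in each bar; 115 control members and 32 H89 members had a partner with neighbours.

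At lone sites called in both lists the score was higher with H89 in more pairs than it was lower. Of 332 mutually nearest pairs with at least 1 isolated summit, 141 scored higher with H89 by more than 0.1 (42.5%, interval 37.1% to 48.0%), against 49.8% of all 7818 autosomal pairs and 50.1% of the 7486 pairs with no isolated summit. Scores were lower with H89 by more than 0.1 in 53 pairs (16.0%, 12.2% to 20.4%), against 14.6% of all autosomal pairs. The other 138 pairs were within 0.1. If differences of any size are counted, all 138 are lower with H89 and 57.5% of the pairs are lower, because the same count step is at a slightly lower score in the H89 list (5.49 against 5.50 in the control at 3 counts).

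Pairs scoring higher with H89 made up a larger share at higher mean scores, at isolated and other sites. At a mean score from 2 up to 4 this share was 16 of 85 isolated pairs (18.8%, interval 11.2% to 28.8%) and 31.3% of the pairs with no isolated summit. From 4 up to 6 it was 45 of 113 (39.8%, 30.7% to 49.5%) and 48.6%. From 6 up to 10 it was 54 of 95 (56.8%, 46.3% to 67.0%) and 64.6%. From 10 upward it was 26 of 39 (66.7%, 49.8% to 80.9%) and 75.4%. The median difference in that highest class was 2.39 at isolated pairs and 2.54 at the others. The score steps bear on these shares. With both summits on the first mean, a pair of 2 against 3 counts has a mean score of about 4.47. Such pairs below 4 therefore have 2 counts in each list and are within 0.1 by construction. Isolated summits are more often on that mean than the others. The part of the steps in the rise and in the gap to the other pairs was not tested.

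Read as counts, most lone sites differed by 1 count or not at all. Both summits were on steps of the first mean in 225 of the pairs with at least 1 isolated summit. The count was the same in 110 of them (48.9%, interval 42.2% to 55.6%), 1 higher with H89 in 62 and 1 lower in 26. It was 2 or more higher with H89 in 24 and 2 or more lower in 3. Among pairs with no isolated summit, 42.7% had the same count. With 1 library per condition, unequal depth or tagging efficiency and unequal HDAC1 occupancy cannot be told apart here.

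**Figure D5:**
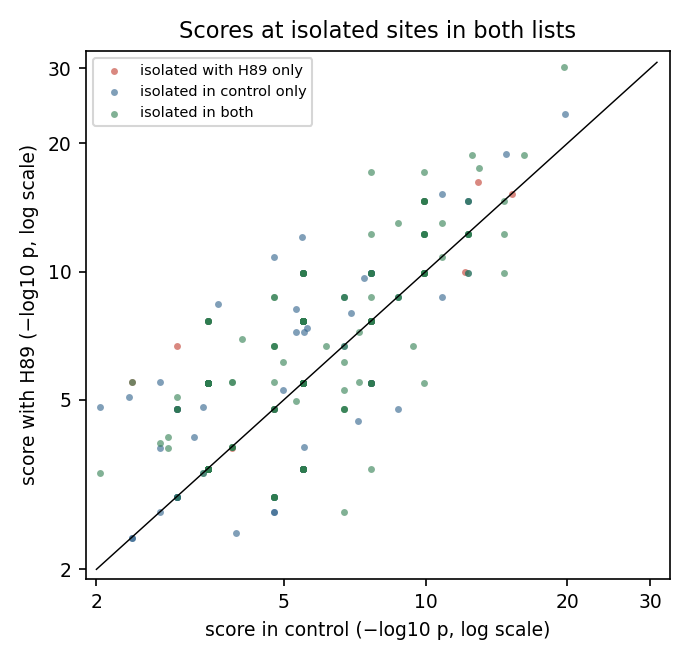
Each point is a site with at least 1 isolated summit, with its score in the control on the x axis and with H89 on the y axis (−log10 p, log scales), coloured by the list in which it was isolated; the line marks equal scores, and many points coincide because scores take few values. Of 332 pairs, 141 lie above the line and 53 below it by more than 0.1, and the highest is the site in 3q13.31.

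The strongest lone HDAC1 sites were called in both lists, as were nearly all other summits of such scores. Among non-isolated summits scoring 10 or more, 1032 of 1046 with H89 and 558 of 559 in the control had a partner. All 28 isolated H89 summits scoring 10 or more had a control partner, at a median offset of 28 bp and at most 394 bp, and 25 of those partners were isolated too. All 23 isolated control summits scoring 10 or more had an H89 partner, at a median offset of 27 bp and at most 91 bp, and 15 of those were isolated. The lowest partner score was 7.67 in the control and 8.71 with H89. Many of these summits share a score, with 7 isolated H89 summits at 14.7 and 10 isolated control summits at 12.3, so ranks within them are ties.

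The highest site isolated in both lists lay in 3q13.31, a gpos75 band of chromosome 3. It scored 30.2 at 114866426 with H89 and 19.7 at 114866463 in the control, and its nearest neighbour was 637 kb away in each list. The control score is the 9-count step of the first mean. It was the only isolated summit of either list above 20.

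The other sites among the 5 highest isolated in both lists, by mean score, were in bands of intermediate or dark stain. The next after them, in 4q13.2, was in a Giemsa-negative band. Of all isolated summits scoring 10 or more, 8 of 28 with H89 and 7 of 23 in the control lay in gpos75 and gpos100 bands. Over all isolated summits these were 118 of 318 and 117 of 346. In 3p12.3 the site described above scored 18.8 with H89 and 16.2 in the control. In 6q25.2 the score was 18.8 at 153304538 with H89, against 12.5 at 153304552 in the control, and the nearest neighbour was 602 kb away in each list. In 9q21.13 it was 17.5 at 74526336 with H89, against 13.0 at 74526296 in the control. In 4q24 the scores were nearly equal, 14.68 at 107237588 with H89 and 14.71 at 107237557 in the control, both the 7-count step.

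At some strong lone sites the scores differed by more than 1 count step. In 4q34.3, a gpos100 band, the summit at 182162076 with H89 scored 17.2, the 8-count step, against 7.67, the 4-count step, at 182162048 in the control. In 4q13.2 the score was 17.2 at 68566807 with H89, against 9.94 at 68566793 in the control. The opposite held in 18p11.31, where the score was 9.92 at 6541442 with H89, against 14.7 at 6541456 in the control, the largest drop among the 332 pairs. The site in 16q23.1 differed by 1 step, scoring 12.3 at 77224829 with H89, against 14.7 at 77224824 in the control.

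The highest isolated control summit was no longer alone with H89. It lay in 8p21.2 on chromosome 8 at 25316113, scored 19.8 and stood 833 kb from the next control summit. Its H89 partner at 25316132 scored 23.4 and had an H89 neighbour at 242 kb. In 11q24.1 the control summit at 122933152 (score 14.8, nearest neighbour 622 kb away) had an H89 partner at 122933106 that scored 18.9 and had a neighbour at 406 kb. In 2p23.1 the opposite was seen, with a summit at 30369557 that scored 15.2 and was 900 kb from the next with H89, against a partner at 30369601 in the control that scored 15.2 and had a neighbour at 301 kb.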

How the data were processed

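CUT&Tag libraries of HepG2 cells were profiled with or without H89; the series title gives HDAC1 as the target. Bowtie 0.12.2 and the hg19 build are named, per the submitters' processing notes. Neither the peak caller nor its control library or threshold is given in the sources used here. The authors deposited 1 list of 1-bp summits per HDAC1 library, with a score read here, from its values, as a −log10 p-value. Peak names were matched to sample titles. Depth is unknown.

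Isolation (over 500 kb) was computed within each list on 22 autosomes, and partners were sought within 1000 bp. Bands came from the hg19 table of circlize 0.4.16, whose 22 autosome lengths equal those in GenomeInfoDb 1.38.1 (R 4.3.3). Intervals are Clopper-Pearson at 95%. The members, lists and comparisons were chosen with earlier results of these data known. Sites named are the 10 highest-scoring and 5 loneliest per list, the 3 on each side of the limit, the 5 highest isolated in both, and the 5 richest bands (ties by chromosome and position, and for bands by the H89 number); others were named after their values were seen. Distance, pairing and step functions were tested on simulated data. Computation used Python 3.11.15 (scipy 1.17.1, numpy 2.4.6, pandas 2.3.3, matplotlib 3.10.9).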

Additional observations from a re-analysis of the deposited data

How the results depend on the processing

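Of 56 values recomputed under 13 alternatives, 39 stayed within the interval of the value reported, or within 1.5 times for a number of summits. Isolation beyond 250 kb gave 770 H89 and 826 control members, of which 27.3% and 24.6% lay in gpos75 and gpos100 bands. Beyond 1000 kb there were 123 and 141, with 51.2% and 51.1% in those bands. When each list was first reduced to its upper part by score, from the median up, 27.8% of H89 and 27.6% of control members lay there, and the H89 median score was 5.68, which the choice by score raises by construction. With neighbours of either list counted, 221 control members remained. A partner on the identical base was found for 0.943% of H89 and 2.31% of control members, and within 100 bp for 51.6% and 65.0%. Counting any score difference made 57.5% of isolated pairs lower with H89. H89 members were fewer than control members under 4 of 5 alternatives of membership, the exception being neighbours of either list. No paired analysis was possible because neither condition has more than 1 library. Unknown depth, the lack of replicates and the lack of hg19 gene models limit these values.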
